A study of Homo sapiens with 8 samples.

Results

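FGF19 added to TNFα was compared with TNFα alone in DU145, a human prostate cancer cell line that expresses the receptor FGFR4. The comparison took the 2 arrays labelled FGF+TNF and the 2 arrays labelled TNF, which is 4 of the 8 Affymetrix Human Gene ST arrays of the study, and every one of the 33297 probesets on them. The other 4 arrays were 2 of untreated cells (Mock) and 2 of cells given FGF19 alone. Per the labels, all cells were kept in serum-free RPMI medium before treatment, TNFα was given at 50 ng/ml for 90 min, and FGF19 was given at 50 ng/ml together with 100 µg/ml heparin for 100 min, so that in the combined group FGF19 and heparin preceded TNFα by 10 min. The study's methods name the same dose of FGF19 but lower doses of heparin and TNFα. No array held heparin without FGF19 or FGF19 without heparin, and the effects of these agents cannot be told apart. "FGF19" below therefore stands for FGF19 with heparin. All arrays came from 1 cell line, and the labels call the replicates biological. The study's methods speak of duplicate samples on duplicate arrays and do not say whether these were separate cultures.

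TNFα binds its receptor TNFRSF1A and, through adaptor proteins and the IKK complex of kinases, causes the inhibitor IκBα to be degraded, which frees NFκB to enter the nucleus. NFκB is a family of dimeric transcription factors that bind κB sites near chemokine, adhesion, survival and feedback inhibitor genes and raise their transcripts quickly. FGF19 is an endocrine fibroblast growth factor that acts through FGFR4 with the co-receptor β-Klotho (KLB). FGFR4 is a receptor tyrosine kinase that signals to the ERK and PI3K pathways. The study asked whether FGFR4, which it found bound to IKKβ, alters the response of prostate cancer cells to TNFα.

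The addition of FGF19 to TNFα was followed by differences in a large part of the transcripts measured. Limma called 10773 (32.4%) at an adjusted p under 0.05, of which 6474 were higher (19.4%) and 4299 lower (12.9%) in FGF19 + TNFα than in TNFα. At least 2-fold differences were called for 881 probesets that were higher (2.65%) and 847 that were lower (2.54%). The balance of the directions depended on scaling, because the median log2 difference of all probesets was 0.10: quantile normalization left 5100 higher and 4735 lower, cyclic loess 5024 and 4971, and centring of each array on its median 4961 and 5065. When each of the 18417 genes was represented by its brightest probeset, 4028 genes (21.9%) were higher and 2838 (15.4%) lower, with a median log2 difference of 0.11. These shares are the background for the gene lists below. Signals are relative within an array and show neither the number of cells nor the amount of RNA per cell. The number called fell to 4480 without FGF19 + TNFα replicate 2, to 5215 without TNFα replicate 2, to 5585 without TNFα replicate 1 and to 6584 without FGF19 + TNFα replicate 1.

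The cyclin-dependent kinase inhibitor gene CDKN1A, which encodes p21, illustrates a transcript that TNFα raised and that was lower when FGF19 was present. Its signal was 703 and 661 on the TNFα arrays and 278 and 291 on the FGF19 + TNFα arrays. On the Mock arrays it was 196 and 181, and on the FGF19 arrays 185 and 174. The FGF19 + TNFα arrays thus lay below both TNFα arrays and above all 4 arrays without TNFα. The signal fell 2.40-fold, a log2 difference of −1.26 with a standard error of 0.09 and an adjusted p of 0.00348 in the limma fit (n = 2 arrays a group, as throughout). Without TNFα, FGF19 gave a log2 difference of −0.07 (adjusted p = 0.601). In each gene described below as having risen or fallen, both arrays of one group likewise lay above both arrays of the other. Such separation, in one direction or the other, held for 70.0% of all probesets. It was a condition for naming the largest rises and falls, and so is no support for them. The study also chose CDKN1A on these arrays, so that its direction is not independent evidence.

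**Figure D1:**
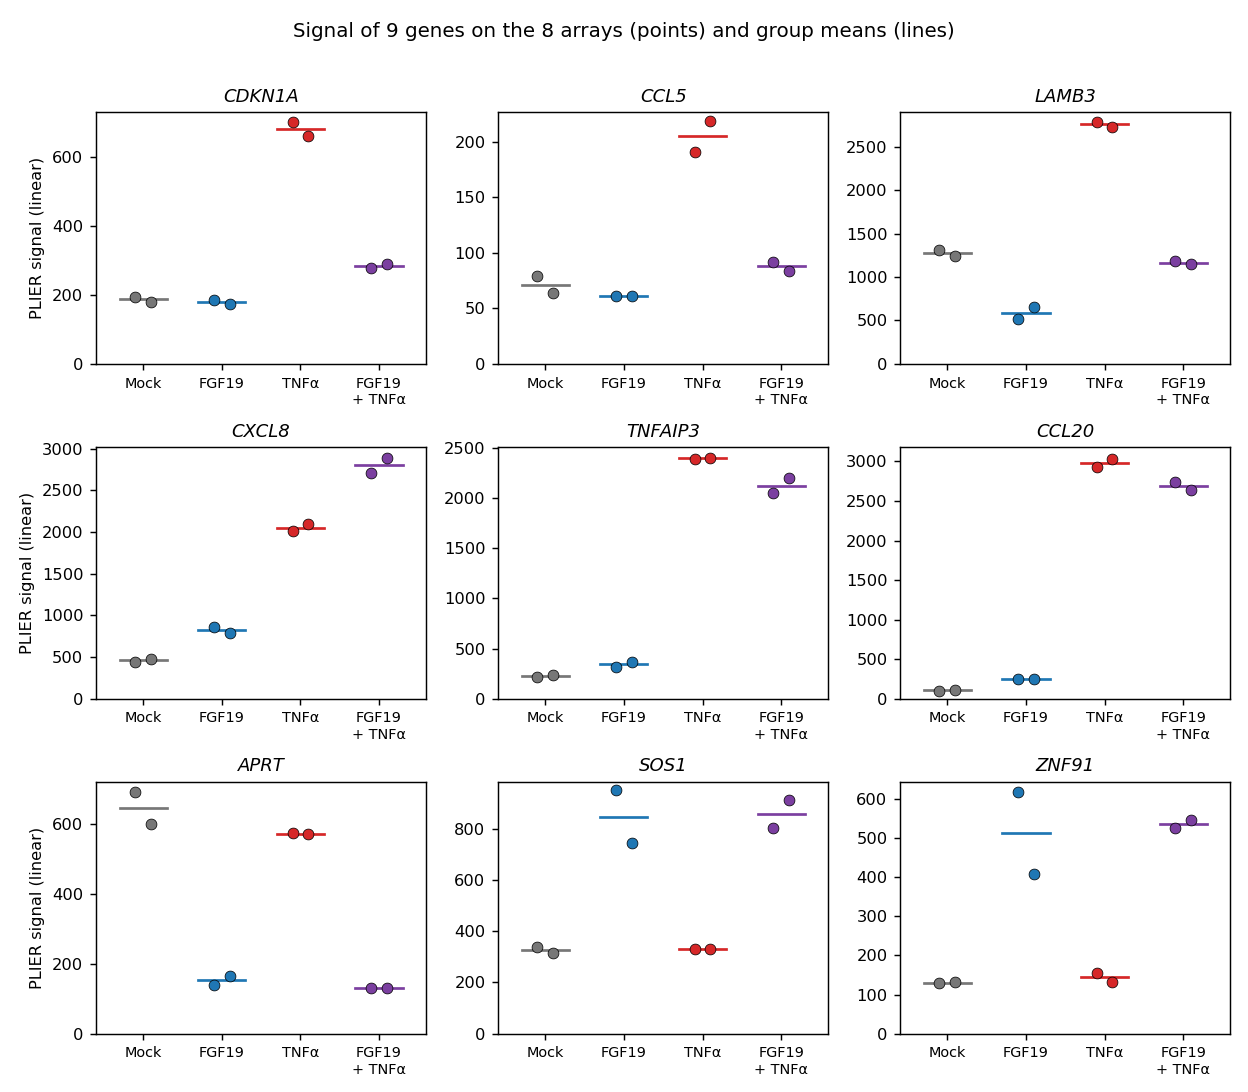
Linear PLIER signal (y axis, each from 0) of 9 genes on the 8 arrays in the 4 groups, with points for arrays and lines for group means. CDKN1A, CCL5 and LAMB3 were lower in FGF19 + TNFα than in TNFα, CXCL8 was higher, TNFAIP3 and CCL20 did not pass the test, and APRT (lower), SOS1 and ZNF91 (higher) separated all 4 arrays with FGF19 from all 4 without it.

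Among NFκB-related genes, the direction of the difference varied with the kind of gene. Of 81 genes in 4 lists (chemokines and cytokines, feedback inhibitors, NFκB subunits, and other targets), 10 were higher in FGF19 + TNFα, 31 were lower and 40 did not pass. Over all genes 21.9% were higher and 15.4% lower. The median log2 difference of the 81 genes was −0.18. With 1 of the 4 arrays compared left out, 1 to 6 were higher and 19 to 25 lower (1 and 19 without FGF19 + TNFα replicate 2, 1 and 22 without TNFα replicate 1, 3 and 20 without TNFα replicate 2, 6 and 25 without FGF19 + TNFα replicate 1). FGF19 against Mock, which shares no array with this comparison, gave 19 higher and 19 lower for the same genes, against a background of 19.9% and 17.0% of all genes. Of the 81 genes, 45 were higher in TNFα than in Mock, a comparison in which 1.06% of probesets were called and 1.28% of genes were higher. Of these 45 genes, 4 were higher, 20 lower and 21 not called when FGF19 was added, with a median log2 difference of −0.32 and a range from −1.29 to 0.52. Without FGF19 + TNFα replicate 2 these counts were 0 higher and 12 lower, without TNFα replicate 1 0 and 15, and without TNFα replicate 2 2 and 13. The 45 were chosen with the TNFα arrays, which both comparisons share, so that this count describes them and is no evidence of a direction.

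**Figure D2:**
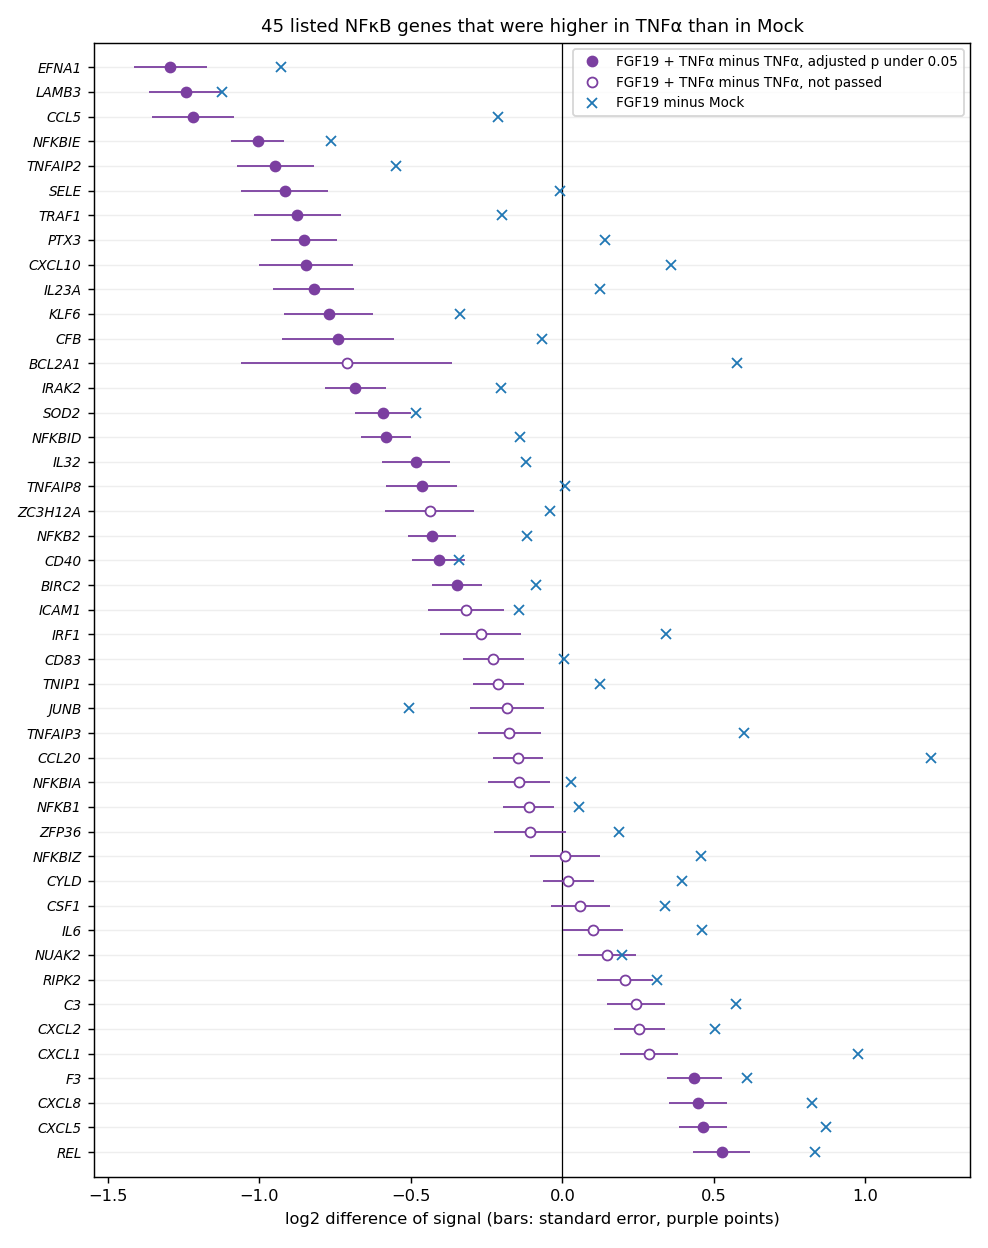
Log2 difference of signal (x axis) for the 45 NFκB-related genes (y axis) that were higher in TNFα than in Mock. Purple points with standard error bars show FGF19 + TNFα minus TNFα (filled where the adjusted p was under 0.05), and blue crosses show FGF19 minus Mock. EFNA1, LAMB3 and CCL5 lie at the low end, and CXCL8, CXCL5, REL and F3 are the filled points above 0.

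The other NFκB targets, a list of adhesion, matrix, survival and enzyme genes, held most of the lower calls. Of its 30 genes 17 were lower (56.7%) and 1 was higher (3.33%), against 15.4% and 21.9% of all genes. The median log2 difference was −0.53. Fewer were called lower with 1 of the 4 arrays left out, with medians between −0.48 and −0.53. Of the 30 genes 21 were higher in TNFα than in Mock, and 12 of these 21 were lower here. Both comparisons share the TNFα arrays. LAMB3, a chain of laminin 332 in the basement membrane, had signals of 2779 and 2729 with TNFα alone and 1182 and 1148 with FGF19 + TNFα. It fell 2.36-fold (log2 difference −1.24, standard error 0.12, adjusted p = 0.00348), and the FGF19 + TNFα arrays lay below the Mock arrays too (1312 and 1243). EFNA1, the ephrin A1 ligand, fell from 1909 and 1922 to 845 and 723 (log2 difference −1.29, standard error 0.12, adjusted p = 0.00348). Its receptor gene EPHA2 fell from 1447 and 1485 to 621 and 598 (log2 difference −1.27, adjusted p = 0.00352). The glucose transporter gene SLC2A6 fell from 337 and 347 to 123 and 147, a log2 difference of −1.35. All 4 of these genes were also lower with FGF19 alone than in Mock, by log2 differences of −1.12 for LAMB3, −0.93 for EFNA1, −1.07 for EPHA2 and −1.21 for SLC2A6. SELE (E-selectin) and PTX3 (a secreted pentraxin), named here after their values were seen, had TNFα signals of 129.7 and 158 (SELE) and 268 and 302 (PTX3), against 74 and 77.8 and 154 and 161 once FGF19 was added. Both passed the test (log2 differences −0.92 and −0.85), and in both the groups did not overlap, although without TNFα both lay below the 20th percentile of the arrays.

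Chemokine and cytokine genes went both ways, in shares near those of all genes (18.5% higher and 22.2% lower, against 21.9% and 15.4%). Of 27 such genes 5 were higher and 6 lower, with a median log2 difference of 0.06 that changed sign under quantile normalization (−0.05), cyclic loess normalization (−0.09) and median centring (−0.01). Fewer were called in either direction with 1 of the 4 arrays left out, as over all probesets, and the median then lay between 0.002 and 0.05. CCL5 (RANTES), which attracts T cells and monocytes, had signals of 191 and 218 with TNFα alone and 92.1 and 83.6 with FGF19 + TNFα (log2 difference −1.22, standard error 0.14, adjusted p = 0.00355). IL23A, a subunit of interleukin 23, fell from 385 and 409 to 226 and 223 (log2 difference −0.82, adjusted p = 0.00713). LIF, a cytokine of the interleukin 6 family, fell from 857 and 861 to 489 and 440.1 (log2 difference −0.89, adjusted p = 0.00509). For each of these 3 genes both FGF19 + TNFα arrays lay below both TNFα arrays.

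Of the neutrophil attractants of the CXCL group, CXCL8, CXCL5, CXCL6 and CXCL3 were higher. CXCL8 (interleukin 8) had signals of 2010 and 2093 with TNFα alone and 2708 and 2892 with FGF19 + TNFα, a 1.36-fold rise (log2 difference 0.45, standard error 0.10, adjusted p = 0.0166). CXCL5 rose from 399.8 and 424 to 566 and 571 (log2 difference 0.46, adjusted p = 0.0084). The arrays of the 2 groups did not overlap for either gene, and FGF19 alone also raised both, by log2 differences of 0.82 and 0.87. Neither call held for every array left out: CXCL8 had adjusted p-values of 0.0892 without FGF19 + TNFα replicate 2, 0.0852 without TNFα replicate 1 and 0.0661 without TNFα replicate 2, and CXCL5 of 0.0524 without FGF19 + TNFα replicate 2 and 0.0556 without TNFα replicate 1. CXCL6 rose from 77.6 and 80.7 to 122 and 117 (log2 difference 0.59, adjusted p = 0.0258), and CXCL3 from 193 and 188 to 244 and 344 (log2 difference 0.61, adjusted p = 0.0478). CXCL6 kept its call in 4 of the 8 fits that left out an array and CXCL3 in 1. CXCL1 had a log2 difference of 0.29 (adjusted p = 0.0654) and CXCL2 of 0.25 (adjusted p = 0.0616), and did not pass. CXCL6, CXCL3, CXCL1 and CXCL2 were named after their values were seen. CCL20, an attractant of dendritic cells and lymphocytes, had signals of 2932 and 3030 with TNFα alone and 2743 and 2642 with FGF19 + TNFα (log2 difference −0.15, adjusted p = 0.222). FGF19 alone raised CCL20 from 104 and 112 in Mock to 249 and 253.

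The genes that restrain NFκB did not move as a block. Of 19 feedback inhibitor genes 2 were higher (10.5%) and 6 lower (31.6%), against 21.9% and 15.4% of all genes. Their median log2 difference was −0.14. NFKBIA, which encodes IκBα, had signals of 5163 and 5180 with TNFα alone and 4779 and 4582 with FGF19 + TNFα (log2 difference −0.14, standard error 0.10, adjusted p = 0.319). TNFAIP3 (A20), a ubiquitin-editing enzyme, had signals of 2393 and 2396 and of 2048 and 2196 (log2 difference −0.18, adjusted p = 0.24). Although neither passed the test, both FGF19 + TNFα arrays lay below both TNFα arrays for each of them, as happened in one direction or the other for 70.0% of all probesets. NFKBIE, which encodes IκBε, fell from 634 and 638 to 331 and 303 (log2 difference −1.0, standard error 0.09, adjusted p = 0.00348). NFKBID, an IκB-like nuclear protein gene, fell from 256 and 263 to 179 and 168 (log2 difference −0.58, adjusted p = 0.00527). N4BP1, an inhibitor of NFκB signaling, rose from 305 and 316 to 541 and 551 (log2 difference 0.82, adjusted p = 0.00576).

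The 5 NFκB subunit genes split, with 2 higher, 2 lower and 1 not called. REL (c-Rel) rose from 797 and 822 to 1128 and 1203 (log2 difference 0.53, adjusted p = 0.0093). RELA (p65), the main activating subunit, rose from 593 and 604 to 794 and 799.7 (log2 difference 0.41, adjusted p = 0.0101). RELB, a subunit of the noncanonical pathway, fell from 475 and 486 to 248 and 232 (log2 difference −1.0, adjusted p = 0.00695). The partner of RELB, NFKB2 (p100), fell from 1047 and 1041 to 789 and 761 (log2 difference −0.43, adjusted p = 0.0104). NFKB1 (p105 and p50) had signals of 1949 and 1801 and of 1735 and 1733 and did not pass (adjusted p = 0.344). The calls of REL, RELA and NFKB2 were lost with single arrays left out, with adjusted p-values of 0.0591 without FGF19 + TNFα replicate 2 and 0.0544 without TNFα replicate 1 for REL, 0.0586 without FGF19 + TNFα replicate 2, 0.0608 without TNFα replicate 1 and 0.0551 without TNFα replicate 2 for RELA and 0.0638 without FGF19 + TNFα replicate 2, 0.059 without TNFα replicate 1 and 0.0585 without TNFα replicate 2 for NFKB2, and RELB kept its call in each of them.

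κB letters stood in the promoters of genes that moved in both directions. In the 250 bases before the start of transcription (RefSeq, GRCh38.p14), a 10-base κB motif was searched for on both strands, and overlapping matches were counted as 1 promoter. It was found in 27 of the 68 NFκB-related genes that had a promoter in the table (39.7%), against 823 of 14239 of all genes measured (5.78%) and 1380 of 27305 of all promoters (5.05%). Among the NFκB-related genes it was found in 7 of 25 that were lower (28%), 5 of 10 that were higher (50.0%) and 15 of 33 that were not called (45.5%). Of the 250-base stretches below, 3 belong to genes that fell (LAMB3, CXCL10 and IL23A) and the others to genes that rose (CXCL5 and REL). They are printed to show that such matches occur on both sides. Capitals mark the κB matches, which overlap each other in LAMB3 (at the end), CXCL5 and REL. A match is a description of the letters and not a binding site that was measured.
LAMB3, chr1:209652426-209652675, minus strand: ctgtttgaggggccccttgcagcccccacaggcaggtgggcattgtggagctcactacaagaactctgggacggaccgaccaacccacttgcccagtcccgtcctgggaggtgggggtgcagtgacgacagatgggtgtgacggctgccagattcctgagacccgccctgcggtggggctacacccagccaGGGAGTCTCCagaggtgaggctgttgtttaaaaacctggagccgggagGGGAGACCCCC
CXCL10, chr4:76023498-76023747, minus strand: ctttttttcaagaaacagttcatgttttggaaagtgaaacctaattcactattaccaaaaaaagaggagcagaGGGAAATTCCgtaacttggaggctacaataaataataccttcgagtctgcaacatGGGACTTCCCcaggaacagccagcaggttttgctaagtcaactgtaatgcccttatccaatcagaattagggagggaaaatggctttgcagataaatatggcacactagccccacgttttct
IL23A, chr12:56338634-56338883, plus strand: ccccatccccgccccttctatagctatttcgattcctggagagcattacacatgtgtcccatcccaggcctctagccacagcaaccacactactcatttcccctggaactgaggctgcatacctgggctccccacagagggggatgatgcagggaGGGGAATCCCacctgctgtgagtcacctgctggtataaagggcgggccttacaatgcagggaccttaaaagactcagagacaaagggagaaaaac
CXCL5, chr4:73998678-73998927, minus strand: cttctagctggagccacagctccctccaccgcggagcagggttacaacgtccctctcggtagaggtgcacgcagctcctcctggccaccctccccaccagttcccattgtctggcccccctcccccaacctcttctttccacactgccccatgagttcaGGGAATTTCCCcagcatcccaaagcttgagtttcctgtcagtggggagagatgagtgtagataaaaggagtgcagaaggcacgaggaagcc
REL, chr2:60881324-60881573, plus strand: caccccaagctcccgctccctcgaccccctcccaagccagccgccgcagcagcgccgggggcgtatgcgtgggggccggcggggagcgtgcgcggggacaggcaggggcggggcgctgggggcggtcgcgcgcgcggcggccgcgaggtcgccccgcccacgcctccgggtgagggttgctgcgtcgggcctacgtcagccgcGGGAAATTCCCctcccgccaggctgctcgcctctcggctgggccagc

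CXCL10, an attractant of activated T cells shown above for its 2 κB matches, was named after its values were seen. Its signals were 147 and 189.6 with TNFα alone and 102 and 84.3 with FGF19 + TNFα (log2 difference −0.84, standard error 0.16, adjusted p = 0.0104). Both FGF19 + TNFα arrays lay below both TNFα arrays, but without FGF19 + TNFα replicate 2 the adjusted p was 0.0593.

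Between the TNF receptor and IKK, transcripts also moved in both directions. Of 22 genes from receptor to IKK 5 were higher (22.7%) and 10 lower (45.5%), with a median log2 difference of −0.21. The higher share was near the 21.9% of all genes, of which 15.4% were lower. TNFRSF1A, the receptor itself, had signals of 974 and 934 with TNFα alone and 867 and 868 with FGF19 + TNFα (adjusted p = 0.267). IKBKB, which encodes IKKβ, had signals of 404 and 409.9 and of 335 and 342 (log2 difference −0.27, adjusted p = 0.118). It was called with an adjusted p of 0.0376 when either of the arrays with FGF19 alone was left out, which changes only the estimate of the spread. TRAF6, a ubiquitin ligase that couples interleukin 1 and Toll-like receptors to IKK, rose from 244 and 256 to 416 and 416 (log2 difference 0.74, standard error 0.10, adjusted p = 0.00423). TRAF6 was also higher with FGF19 alone, by a log2 difference of 0.92.

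Apoptosis genes were more often lower than higher. Of 19 death receptor, adaptor and caspase genes 8 were lower (42.1%) and 3 higher (15.8%), against 15.4% and 21.9% of all genes. In the brightest of 5 signal classes of probesets 21.4% were lower. The median log2 difference of the 19 genes was −0.17. Fewer of them were called with 1 of the 4 arrays left out, with medians between −0.14 and −0.21. FADD, the adaptor that links death receptors to caspase-8, fell from 1378 and 1496 to 520.1 and 572 (log2 difference −1.40, standard error 0.17, adjusted p = 0.00382). TNFRSF10B, the TRAIL receptor DR5, fell from 2186 and 2245 to 962 and 904 (log2 difference −1.25, standard error 0.11, adjusted p = 0.00348). FAS, another death receptor, went the other way, from 296 and 324 to 504 and 495 (log2 difference 0.69, adjusted p = 0.00864, and 0.051 without TNFα replicate 1). It was named after its values were seen. The kinase gene DAPK1, which promotes cell death, rose from 199 and 209 to 297 and 324 (log2 difference 0.61, adjusted p = 0.00558).

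Of 29 genes of the BCL2 family and the mitochondrial pathway 10 were lower (34.5%) and 2 higher (6.9%), against 15.4% and 21.9% of all genes. Their median log2 difference was −0.22. With 1 of the 4 arrays left out 4 to 8 were lower. The lower genes with the smallest p included both sides of the pathway. BCL2L12, which is described as antiapoptotic, fell from 252 and 268 to 99.1 and 103 (log2 difference −1.36, standard error 0.09, adjusted p = 0.00348). BAD, a proapoptotic BH3-only protein gene, fell from 225 and 199 to 113 and 95.5 (log2 difference −1.03, standard error 0.12, adjusted p = 0.00375). MTCH1, a mitochondrial outer membrane protein gene, fell from 762 and 785 to 333 and 289 (log2 difference −1.32, adjusted p = 0.00348). All 3 were lower with FGF19 alone as well, by log2 differences of −1.47, −1.29 and −1.47. FADD, TNFRSF10B and MTCH1 are among the genes the study named from these arrays, so their directions are not independent evidence.

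Genes that restrain the cell cycle or proliferation numbered 26, of which 9 were lower and 6 higher, with a median log2 difference of −0.09. The higher calls fell to 3 without any one of the 4 arrays or either Mock array, and 7 or 8 were lower. BTG1, an antiproliferative gene also named by the study, fell from 1556 and 1571 to 694 and 689 (log2 difference −1.18, standard error 0.09, adjusted p = 0.00348). RBL1 (p107), a relative of the retinoblastoma protein, rose from 621 and 620.5 to 1026 and 1023 (log2 difference 0.72, standard error 0.08, adjusted p = 0.00357). RB1 itself, named after its values were seen, rose from 663 and 657 to 1428 and 1465 (log2 difference 1.13, adjusted p = 0.00398). Of 60 genes of G1/S, replication and mitosis 13 were higher and 22 lower, with a median log2 difference of −0.18. CCNK, a cyclin of transcription elongation that the study named, rose from 426 and 416 to 945 and 949 (log2 difference 1.17, adjusted p = 0.00348). POLD1, the catalytic subunit of DNA polymerase delta, fell from 174 and 183 to 81.1 and 73.6 (log2 difference −1.21, adjusted p = 0.00348). Antiproliferative genes and genes of proliferation were found on both sides. Their higher shares (23.1% and 21.7%) were near the 21.9% of all genes. Their lower shares were 34.6% and 36.7%, against 15.4% of all genes and 21.4% of the brightest class of probesets.

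The genes of FGF signaling were also split. Of 26 receptors and proximal signaling genes 8 were higher (30.8%) and 9 lower (34.6%), against 21.9% and 15.4% of all genes. Their median log2 difference was 0.04, and its sign turned under quantile normalization (−0.04), cyclic loess normalization (−0.06) and median centring (−0.03). FGFR4 had signals of 151 and 166 with TNFα alone and 123 and 115 with FGF19 + TNFα (log2 difference −0.42, standard error 0.10, adjusted p = 0.0227). The groups did not overlap, but the call was lost without any one of the 4 arrays, with adjusted p-values of 0.057 to 0.119. KLB had signals of 83.4 and 98.2 and of 97.6 and 113, and the groups overlapped (adjusted p = 0.318). SOS1, an exchange factor that activates RAS, rose from 332 and 329 to 801 and 912 (log2 difference 1.37, standard error 0.14, adjusted p = 0.00348). Its relative SOS2 rose from 1002 and 987 to 1536 and 1623 (log2 difference 0.67, adjusted p = 0.00549). GAB1, a docking protein of growth factor receptors that the study also named, rose from 162 and 175 to 381 and 419 (log2 difference 1.25, adjusted p = 0.00348), but its other probeset did not pass (adjusted p = 0.682). MAP2K1 (MEK1), a kinase upstream of ERK, fell from 1391 and 1463 to 732 and 779 (log2 difference −0.92, standard error 0.14, adjusted p = 0.00559).

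Of 19 ERK feedback inhibitors 3 were higher (15.8%) and 4 lower (21.1%), near the 21.9% and 15.4% of all genes. Their median log2 difference was 0.08 (between −0.07 and 0.06 with 1 of the 4 arrays left out). The lower calls fell to 1 without any one of those 4 arrays and to 2 without either Mock array, and the higher calls to 1 without TNFα replicate 2 and to 2 without any one of the other 3. DUSP1, a phosphatase of MAP kinases, fell from 1275 and 1300 to 588 and 592 (log2 difference −1.13, standard error 0.11, adjusted p = 0.00348). NF1 (neurofibromin), which turns RAS off, rose from 848 and 831 to 1438 and 1566 (log2 difference 0.84, standard error 0.12, adjusted p = 0.00483). DUSP1 and NF1 were lower and higher by nearly the same log2 differences with FGF19 alone (−1.13 and 0.86). Of 31 immediate-early transcription factors 5 were higher and 14 lower, with a median log2 difference of −0.18. Without FGF19 + TNFα replicate 2 0 were higher and 7 lower, without FGF19 + TNFα replicate 1 1 and 10, without TNFα replicate 1 3 and 8, without TNFα replicate 2 1 and 9, and without either Mock array 2 and 12. The growth factor response gene IER5 fell from 552 and 578 to 204 and 185 (log2 difference −1.54, standard error 0.13, adjusted p = 0.00348), and IER2 from 775 and 769 to 361 and 347 (log2 difference −1.12, adjusted p = 0.00364). FOSL2, an AP-1 subunit, fell from 1105 and 1113 to 572 and 506 (log2 difference −1.04, adjusted p = 0.00444). The orphan nuclear receptor gene NR4A1 fell from 363 and 336 to 199.9 and 217 (log2 difference −0.75, standard error 0.12, adjusted p = 0.0065). The related NR4A3, named after its values were seen, rose from 260.2 and 269 to 370.1 and 398 (log2 difference 0.54, adjusted p = 0.00783, and 0.0527 without FGF19 + TNFα replicate 2).

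In the lists of energy metabolism and protein production, the share of lower genes was above the 15.4% of all genes and few genes were higher. Their lower shares were also above the 21.4% and 24.5% of probesets called lower in the brightest signal class and the next. The excess over genes of matched signal was not tested. Of 23 glycolysis and pentose phosphate genes 17 were lower and 0 higher, with a median log2 difference of −0.51. With 1 of the 4 arrays left out 6 to 13 were lower. PFKL, the liver form of phosphofructokinase, fell from 510.3 and 551 to 166 and 141 (log2 difference −1.79, standard error 0.19, adjusted p = 0.00352). SLC2A1 (GLUT1), the basal glucose transporter, fell from 2642 and 2662 to 1403 and 1261 (log2 difference −1.0, adjusted p = 0.00395), and HK2, a hexokinase, from 282 and 270.3 to 133 and 143 (log2 difference −1.0, adjusted p = 0.00391). In oxidative phosphorylation 34 of 68 genes were lower and 4 higher, with a median log2 difference of −0.39. CYC1, cytochrome c1 of complex III, fell from 1011 and 1026 to 365 and 342 (log2 difference −1.53, adjusted p = 0.00348). Of 26 genes of cholesterol and fatty acid synthesis 11 were lower and 1 higher (median −0.27), among them LSS, lanosterol synthase, which fell from 1282 and 1288 to 431 and 392 (log2 difference −1.64, adjusted p = 0.00348).

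Cytosolic ribosomal protein genes were lower for 27 of 62 and higher for 1, with a median log2 difference of −0.30, and 10 to 16 were lower with 1 of the 4 arrays left out. RPL3 fell from 3168 and 3136 to 1692 and 1712 (log2 difference −0.89, standard error 0.10, adjusted p = 0.00353). Mitochondrial ribosomal protein genes were lower for 34 of 73 and higher for 4 (median −0.34), as for MRPL53, which fell from 1046 and 1081 to 485 and 525 (log2 difference −1.08). In the proteasome 22 of 43 subunit genes were lower and 3 higher (median −0.34), and PSMB5, a catalytic subunit, fell from 506 and 505 to 178 and 177 (log2 difference −1.51, adjusted p = 0.00348). Fewer proteasome genes were called lower with 1 of the 4 arrays left out, as over all probesets, and their median then ran from −0.36 to −0.43. Of 19 aminoacyl-tRNA synthetase genes 11 were lower and 1 higher (median −0.40). FARSA, a subunit of the phenylalanine enzyme, fell from 723 and 755 to 272 and 251 (log2 difference −1.50, adjusted p = 0.00356). Of 40 lysosomal V-ATPase and hydrolase genes 22 were lower and 3 higher (median −0.47), and the proton pump subunit gene ATP6V0B fell from 481 and 515 to 214 and 209 (log2 difference −1.24).

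Further lists also held more lower than higher genes, while over all genes 15.4% were lower and 21.9% higher. The integrated stress and unfolded protein response list had 14 of 30 genes lower and 4 higher (median −0.22). DDIT4 (REDD1), an inhibitor of mTORC1, fell from 1169 and 1184 to 322 and 312 (log2 difference −1.89, standard error 0.19, adjusted p = 0.00348). The GPI anchor list had 12 of 31 genes lower and 3 higher (median −0.18). Heparan sulfate proteoglycan and synthesis genes make the sugar chains that FGF ligands and heparin-like molecules bind. Of 29 such genes 7 were lower (24.1%) and 5 higher (17.2%), against 15.4% and 21.9% of all genes (median −0.08). With 1 of the 4 arrays left out 3 to 5 were lower and 1 to 4 higher (5 and 1 without FGF19 + TNFα replicate 1, 3 and 2 without FGF19 + TNFα replicate 2, 4 and 4 without TNFα replicate 1, 4 and 1 without TNFα replicate 2). SDC1 (syndecan 1) fell from 656 and 694 to 304 and 288 (log2 difference −1.19, adjusted p = 0.00348), while GLCE, an epimerase of heparan sulfate, rose from 528 and 517 to 779 and 771 (log2 difference 0.57, adjusted p = 0.00785). Replication-dependent histone genes were lower for 25 of 57 and higher for 2 (median −0.34), and small nucleolar and Cajal body RNAs were lower for 47 of 191 and higher for 22 (median −0.20). Histone, ribosomal protein, snoRNA and ZNF genes have near-identical copies, so that a probeset can read several of them and the gene named is uncertain.

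Most members of the centrosome and chromatin lists were higher, against 21.9% of all genes. The members were chosen with earlier results of these data known, so that these counts describe the lists and are no evidence about such genes in general. Of 39 centrosome, cilium and kinetochore genes that encode coiled-coil proteins 36 were higher and 1 lower, with a median log2 difference of 0.78, and 25 to 31 were higher with 1 of the 4 arrays left out. CEP135, a centriole protein gene, rose from 366 and 355 to 759 and 780.2 (log2 difference 1.10, standard error 0.09, adjusted p = 0.00348). KIF20B, a mitotic kinesin gene, rose from 393 and 376 to 869 and 851 (log2 difference 1.16, adjusted p = 0.00348). Of 35 chromatin remodeler and histone methyltransferase genes 29 were higher and 0 lower, with a median log2 difference of 0.69. ATRX, a remodeler that takes part in the deposition of a variant histone, rose from 413 and 427 to 916 and 971 (log2 difference 1.17, standard error 0.12, adjusted p = 0.00348). TRIM33, a chromatin-bound ubiquitin ligase, rose from 679 and 679 to 1435 and 1549 (log2 difference 1.13, adjusted p = 0.00348).

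Of 480 zinc finger genes whose symbol starts with ZNF, 220 were higher (45.8%) and 28 lower (5.83%), against 21.9% and 15.4% of all genes. Their median log2 difference was 0.35. The count of higher genes ran from 128 to 143 with 1 of the 4 arrays left out. ZNF91, a repressor of transposable elements, had signals of 156 and 132 with TNFα alone and 524 and 545 with FGF19 + TNFα (log2 difference 1.90, standard error 0.20, adjusted p = 0.00348). Other large rises outside these lists were those of TET2, an enzyme that oxidises methylcytosine, from 177 and 145 to 433 and 487 (log2 difference 1.52), and SNX16, a sorting nexin, from 383 and 322 to 1139 and 1152 (log2 difference 1.71). Among the large falls was CLDN4 (claudin 4), a tight junction protein gene, from 284 and 277 to 82.2 and 78 (log2 difference −1.81, standard error 0.13, adjusted p = 0.00348). Interferon-stimulated genes were higher for 8 of 38 (21.1%, near the share of all genes) and lower for 15 (39.5%), with a median of −0.09. Without FGF19 + TNFα replicate 2 the counts were 5 higher and 8 lower with a median of 0.04, without FGF19 + TNFα replicate 1 5 and 13, without TNFα replicate 1 4 and 10, and without TNFα replicate 2 6 and 9. IRF2, a repressor of interferon genes that the study named, rose from 208 and 243 to 547 and 504 (log2 difference 1.22, adjusted p = 0.00348). IFITM3, an antiviral membrane protein gene, fell from 323 and 337 to 132 and 132 (log2 difference −1.32, adjusted p = 0.00348).

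**Figure D3:**
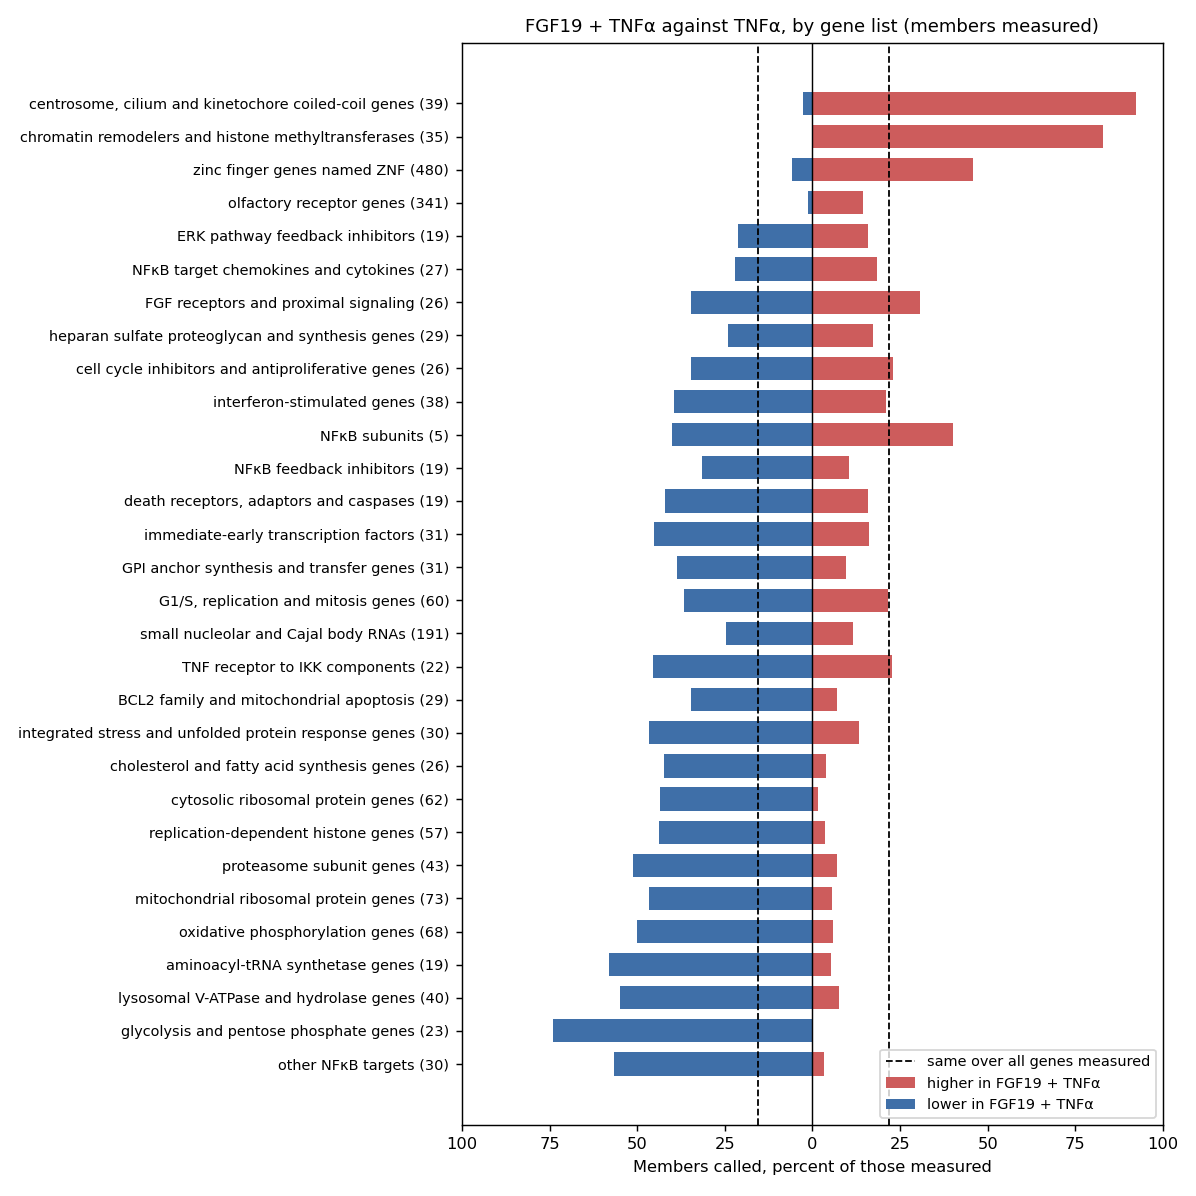
Members of 30 gene lists (y axis, number measured in brackets) that were higher (right) or lower (left) in FGF19 + TNFα than in TNFα, in percent of those measured (x axis). Dashed lines mark the shares over all genes, dim ones included, 21.9% higher and 15.4% lower. Among the brightest of 5 signal classes of probesets 24.3% were higher and 21.4% lower, which the lines do not show. The centrosome and chromatin lists reach furthest to the right and glycolysis furthest to the left. Lists were chosen with earlier results of these data known.

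The direction of the difference went with the length of the gene on the chromosome. Among 10226 protein-coding genes above the median signal, split into 5 classes by span (RefSeq, GRCh38.p14), the 2045 of shortest span (0.27 to 9.53 kb) were lower for 39.5% and higher for 6.6%, with a median log2 difference of −0.25. The 2046 of longest span (91.3 to 1553 kb) were higher for 53.3% and lower for 6.01%, with a median of 0.36. The classes between lay in order, with medians of −0.18, −0.02 and 0.18. Over all 16903 protein-coding genes the pattern was weaker, with medians of 0.02, −0.01, 0.04, 0.17 and 0.29 from shortest to longest. The rank correlation (Spearman) of span and difference was 0.276 over all of them and 0.435 over the brighter genes. With FGF19 against Mock the medians of the brighter genes ran from −0.34 to 0.39, and with TNFα against Mock from −0.07 to 0.02. The centrosome list had a median span of 94.4 kb and the chromatin list of 128 kb, while the list of other NFκB targets had 12.1 kb, NFκB chemokines 3.71 kb and all protein-coding genes 27.3 kb. The part of gene length in the list results was not tested.

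**Figure D4:**
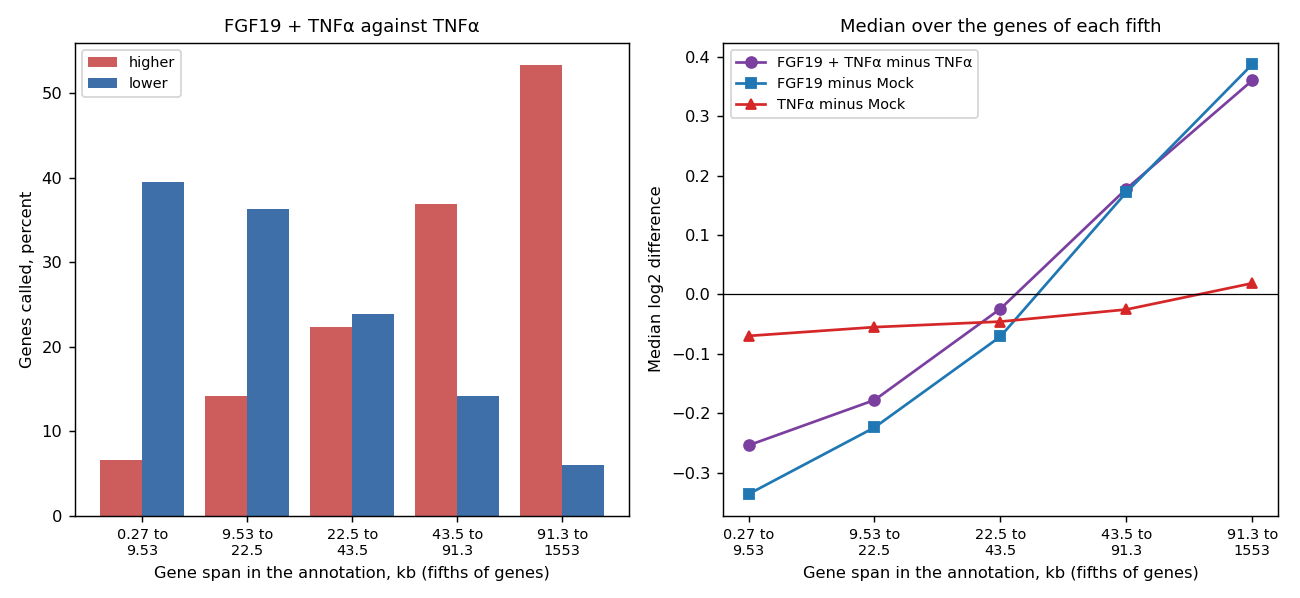
Left, percent of genes called higher and lower in FGF19 + TNFα than in TNFα (y axis) in 5 classes of gene span in kb (x axis), for the 10226 protein-coding genes above the median signal. Right, the median log2 difference of each class in the comparisons drawn, which rises from −0.25 to 0.36 for FGF19 + TNFα minus TNFα.

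Most of the differences had the same direction with and without TNFα. In FGF19 against Mock, 10731 probesets were called (32.2%), and 8274 of them were also called here, which is 76.8% of the calls with TNFα and 77.1% of those without. Of these, 8260 had the same direction and 14 the opposite one. Over genes, 5506 were called in both, 5498 in the same direction. The log2 differences correlated at r = 0.644 across all probesets and at r = 0.89 across the 18417 genes at their brightest probesets, neither of which are independent replicates, and the comparisons share no array. APRT, an enzyme of adenine salvage, shows the pattern: its signal was 575 and 570.5 with TNFα alone and 132 and 131 with FGF19 + TNFα, and 692 and 599 in Mock and 141 and 165 with FGF19. Arrays with FGF19 were low and arrays without it high, whether or not TNFα was given.

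**Figure D5:**
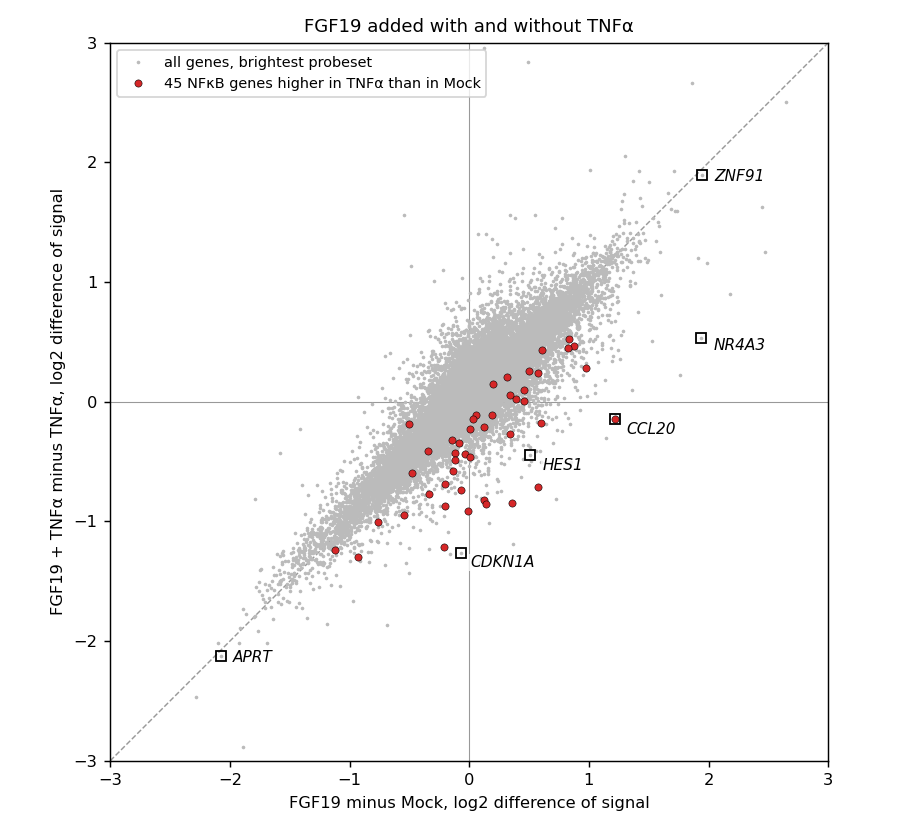
Log2 difference of FGF19 minus Mock (x axis) and of FGF19 + TNFα minus TNFα (y axis) for 18415 genes, 1 point a gene. Most points lie along the diagonal (r = 0.89 over all 18417 genes), APRT and ZNF91 at its ends, while CDKN1A, CCL20, NR4A3 and HES1 lie off it.

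Whether FGF19 acted differently with and without TNFα was tested by the interaction of both agents. No probeset passed (0 of 33297 by limma, 0.0%), the smallest adjusted p was 0.293, and 1715 probesets (5.15%) had an unadjusted p under 0.05. With a trended and robust prior 4 probesets passed. They were CCL20 (interaction −1.36 on the log2 scale, adjusted p = 0.0184), CYP1B1, an enzyme of estrogen and hydrocarbon metabolism (−1.26, adjusted p = 0.0216), TIPARP, a repressor of the aryl hydrocarbon receptor (−0.90, adjusted p = 0.034), and NR4A3 (−1.40, adjusted p = 0.034). For all 4 FGF19 gave a more positive difference without TNFα than with it. The interaction of CDKN1A was −1.19 (standard error 0.13), with an unadjusted p of 7.35e-05 and an adjusted p of 0.349, so that a smaller difference without TNFα was not established for it after adjustment.

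The cells were checked against markers. Of 12 measured prostate epithelial and DU145 markers 2 were higher and 4 lower, with summed signals of 14228 and 14257 with TNFα alone and of 11585 and 11636 with FGF19 + TNFα. The keratin gene KRT8 fell from 2381 and 2262 to 1268 and 1090 (adjusted p = 0.00514), while EPCAM, an epithelial adhesion molecule, had signals of 1139 and 1215 and of 1245 and 1469. The androgen target KLK3 (PSA), which DU145 is known to lack, was between 37.4 and 47.7 on these 4 arrays. Of 10 fibroblast and endothelial markers 3 were higher and 0 lower (2 higher after each of the 3 rescalings, and 0 or 1 with 1 of the 4 arrays left out), with summed signals of 766 and 788 against 898 and 869. Of 7 T and B cell markers 1 was higher (379 and 354 against 410 and 377), and of 6 myeloid and blood markers 1 was higher (282 and 289 against 308 and 315), with 0 lower in either list. The T and B cell call was lost after quantile and cyclic loess normalization, after which 0 myeloid and blood markers were higher and 1 lower. The 20th percentile of an array's signal was 30.7 to 31.6 without FGF19 and 34.6 to 36.6 with it, so that dim probesets were read higher in the arrays with FGF19. The part of this in the differences of dim genes was not tested. Of 341 olfactory receptor genes, which these cells should not express, 49 were higher and 4 lower, a split that became 22 and 10 with cyclic loess.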

How the data were processed

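The arrays measured transcript signal in DU145 cells, with 2 arrays in each of 4 groups, mapped by the sample labels. The authors deposited linear intensity values, 1 column an array, for 33297 probesets. Per the submitters' notes they came from Affymetrix Expression Console by PLIER. Its version and any normalization were not given in the sources used here. The study's methods name VAMPIRE and GeneSpring with a one-way analysis of variance for the later steps. Array medians ranged from 99.5 to 106.6. Signals are not counts of molecules, and precision is limited by how few arrays there are.

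The deposited intensity was taken to log2 after 240 zeros had been replaced with 0.01, the lowest value above 0 on their array, with no further scaling. A linear model with 4 groups was fitted to all 8 arrays and all probesets with limma 3.58.1 (lmFit and eBayes, 4 residual and 2.19 prior degrees of freedom) in R 4.3.3, and p-values were adjusted by the Benjamini-Hochberg method over all probesets and called at 0.05. Comparisons were FGF19 + TNFα against TNFα, FGF19 against Mock, TNFα against Mock, and the interaction. The sources do not say whether duplicate samples were separate cultures, and p-values measure only the spread between these arrays.

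Probesets were named from the platform annotation with symbols updated to RefSeq. A gene was represented by its brightest probeset. Of the 769 genes with several probesets, 4 had probesets called in opposite directions. There were 35 gene lists. The members and lists were chosen with earlier results of these data known. The genes named were the 12 largest rises and 12 largest falls among called probesets brighter than the median whose 2 groups of arrays did not overlap. Also named were the 4 list members of smallest p in each list and genes of the paper's text. Up to 6 called interaction genes in each direction were added, as were 10 pathway genes whatever their values. Genes named after their values were seen are marked as such. The calculations were tested on simulated data with 200 changed probesets. Alternatives were quantile and cyclic loess normalization, median centring, 16 added before log2, leaving out the dimmest 20 percent of probesets, no moderation, a trended and robust prior, only the groups compared, the replicate number as a block, the mean of all probesets of a gene, and leaving out each array. Tables and figures were made with Python 3.11.15, pandas 2.3.3 and matplotlib 3.10.9.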

Additional observations from a re-analysis of the deposited data

How the results depend on the processing

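With 1 array left out, FGF19 + TNFα against TNFα gave 4480 to 11663 called probesets, 2608 to 6920 higher and 1872 to 4743 lower. It gave 1454 by the moderated F test at 0.015 with a 2-fold difference. FGF19 against Mock gave 5755 to 9817 with 1 array left out and 7089 in a fit of only the groups compared. TNFα against Mock gave 90 to 284 with 1 array left out, 562 without the dimmest probesets, 193 without moderation, 632 with a trended and robust prior and 103 in a fit of only the groups compared. The interaction gave 0 to 11 with 1 array left out and 4 with a trended and robust prior. Same-numbered arrays of the TNFα and FGF19 + TNFα groups deviated together at r = 0.06 over all probesets and 0.20 over those above the median signal, and over all pairs of groups r ran from −0.02 to 0.20 and from −0.02 to 0.33, so that the numbers were not taken as pairs. With the replicate number as a block, the counts were 10720 for the main comparison, 10677 for FGF19, 258 for TNFα and 0 for the interaction, and no named gene changed its call under the block. With single arrays left out, calls were lost for CXCL5, CXCL8, FGFR4, LOC441666, NFKB2, REL, RELA, SPRED2 and SPRED3 among the genes of the naming rule and for CXCL3, CXCL6, CXCL10, FAS and NR4A3 among the others named, and without moderation for LOC441666 (adjusted p = 0.0507) and SPRED3 (0.0526). No named gene reversed under any alternative run. The lower genes with 1 of the 4 compared arrays left out numbered 20 to 23 for oxidative phosphorylation, 16 to 21 for mitochondrial ribosomal proteins, 14 to 17 for lysosomal genes, 12 to 15 for histones, 22 to 35 for small nucleolar RNAs, 10 to 14 for G1/S, 7 to 10 for immediate-early genes, 6 to 8 for the stress response, 5 to 7 for GPI anchors, 5 or 6 for tRNA synthetases, 3 to 6 for TNF receptor to IKK and 1 to 3 for FGF signaling. The higher genes numbered 6 to 8 for G1/S, 4 to 6 for FGF signaling, 5 to 12 for small nucleolar RNAs, 1 or 2 for the stress response, 1 for GPI anchors and 0 or 1 for the BCL2 family. The causes were not tested.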

Other observations

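Of the 5506 genes called in FGF19 + TNFα against TNFα and in FGF19 against Mock, 8 were called in opposite directions, among them JAG1 and HES1, named here after their values were seen. JAG1, a Notch ligand, had signals of 232 and 244 with TNFα and of 185 and 203 with FGF19 + TNFα (log2 difference −0.30, adjusted p = 0.0488 in the limma fit of 2 arrays a group), while FGF19 alone gave a log2 difference of 0.30 against Mock. HES1, a transcriptional repressor and Notch target, had signals of 141 and 138 with TNFα and of 102 and 103 with FGF19 + TNFα (log2 difference −0.45, adjusted p = 0.0442), while FGF19 alone gave 0.51. In the same fit FGF19 against Mock had adjusted p-values of 0.047 for JAG1 and 0.029 for HES1. The interaction did not pass for either gene (adjusted p = 0.761 for JAG1 and 0.738 for HES1), so that a reversal was not established. The other 6 were AMPD3, CLCA3P, PDILT, MIR194-1, ADAMTSL4-AS1 and LINC03025. MIR194-1 and PDILT were dim, with signals of 11.5 to 20.9 and of 21.25 to 34.4 on the 8 arrays. The long noncoding RNA LINC03025 had signals of 276 and 277 with TNFα and of 147 and 168 with FGF19 + TNFα, against 12.3 and 13.2 in Mock.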
